A study of Mus musculus with 12 samples.

Results

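Cytotoxic genes were followed in follicular helper T (Tfh) cells, as a named set of 10 among the 25793 genes of the count table. The set held genes of cytotoxic granules and their release (Gzma, Gzmb, Gzmk, Prf1, Nkg7 and Ctsw), genes of natural killer (NK) cell receptors (Klrd1, Klrk1 and Klrc1) and the chemokine gene Ccl5. The members were chosen by read counts: earlier results from the same libraries showed cytotoxic genes to differ between libraries with a first title number of 2 and those with a first title number of 1. That contrast is therefore described by its values, without a test, and the tests below compare the genotypes.

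The data came from 12 libraries, 6 made from Pdcd1+/+ cells (WT) and 6 from Pdcd1KI/KI cells (KI). All were GFP-transduced OT-II CD4+ T cells on the C57BL/6 strain, whose transgenic receptor recognises an ovalbumin peptide, given to B6 mice together with dsRed-expressing MD4 B cells. The recipients were immunized subcutaneously with HEL-OVA in LPS and alum, and CXCR5-high GFP+ cells sorted on day 5 from the lymph node gave pools of 100 to 200 cells, whose polyadenylated RNA was amplified and sequenced. Each title carries a first number (1 or 2) and a second number (1 to 3), and a library is named by both, as in WT 2-3, so that 3 libraries share each genotype and first number. What the knock-in changes, what the title numbers stand for and how many animals gave a pool are not given in the sources used here, so p-values measure only the spread between these libraries, which may be technical.

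Cytotoxic lymphocytes kill by releasing granules that hold perforin, a pore-forming protein, and granzymes, serine proteases that cleave substrates inside the target cell. NKG2 receptors recognise ligands such as those on stressed cells, and CCL5 is a chemokine that attracts T cells and other leukocytes. NK cells and CD8 T cells are the best-known carriers of this programme, some CD4 T cells also express it, and Tfh cells are known instead for helping B cells.

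In the mm9 (NCBIM37) build, which the submitters' processing notes name, the 10 genes lie on 7 chromosomes. Gzma (chr13:113884033-113891187) and Gzmk (chr13:113961816-114016116) are neighbours on the minus strand with 70629 bases between them. Klrd1 (chr6:129541800-129548793), Klrk1 (chr6:129560341-129573882) and Klrc1 (chr6:129616033-129628991) lie within 87192 bases of each other. The others stand alone: Nkg7 at chr7:50692443-50693616, Prf1 at chr10:60760584-60767011, Ccl5 at chr11:83339280-83344020, Gzmb at chr14:56877693-56881097 and Ctsw at chr19:5465240-5468498. In the GENCODE vM1 annotation no other gene's exons overlap theirs, although the span of Gzmk overlaps Esm1 on the opposite strand.

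Promoter sequences are shown for Nkg7 and Gzmk, which differed most between the first numbers among the members that passed the filter on low counts, and for Gzmb and Prf1, granule genes that stayed at low counts. RefSeq promoters (build GRCm38.p6) were found for 7 of the 10 members, and none was found for Ccl5, Ctsw and Klrd1. Each line holds the 250 bases before the gene's start, read 5′ to 3′ on the gene's strand, at chr7:43436888-43437137 on the plus strand for Nkg7, chr13:113180966-113181215 on the minus strand for Gzmk, chr14:56262335-56262584 on the minus strand for Gzmb and chr10:61297586-61297835 on the plus strand for Prf1. Capitals mark matches on either strand to TGTGGT (a RUNX core), GGTGTGA (a T-box core) and TGANTCA (an AP-1 core), none of which overlapped another.
Nkg7: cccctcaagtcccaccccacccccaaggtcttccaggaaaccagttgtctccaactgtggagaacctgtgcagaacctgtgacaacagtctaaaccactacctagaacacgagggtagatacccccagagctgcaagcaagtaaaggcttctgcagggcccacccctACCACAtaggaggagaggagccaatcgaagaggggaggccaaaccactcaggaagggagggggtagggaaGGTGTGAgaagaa
Gzmk: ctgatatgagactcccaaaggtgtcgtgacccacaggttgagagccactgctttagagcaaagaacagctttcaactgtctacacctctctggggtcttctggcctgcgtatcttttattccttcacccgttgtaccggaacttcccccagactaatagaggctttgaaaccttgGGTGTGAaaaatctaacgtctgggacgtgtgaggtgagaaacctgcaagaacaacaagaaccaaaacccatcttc
Gzmb: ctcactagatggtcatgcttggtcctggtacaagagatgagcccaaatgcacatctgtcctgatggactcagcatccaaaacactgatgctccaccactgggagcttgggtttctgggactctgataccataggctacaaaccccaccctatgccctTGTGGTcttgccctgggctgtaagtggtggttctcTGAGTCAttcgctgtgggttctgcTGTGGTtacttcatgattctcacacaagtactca
Prf1: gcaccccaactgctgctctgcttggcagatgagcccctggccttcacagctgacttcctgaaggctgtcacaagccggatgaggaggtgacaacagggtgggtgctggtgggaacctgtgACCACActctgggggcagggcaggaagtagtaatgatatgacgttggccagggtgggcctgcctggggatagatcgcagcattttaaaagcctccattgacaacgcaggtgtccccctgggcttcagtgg
The T-box letters began 13 bases before the start of Nkg7 and 75 bases before that of Gzmk, and were in no other of the 7 member promoters. Of 32851 RefSeq promoter windows of the same length, 3.33% held them. The RUNX letters were in 6 of the 7 promoters, all but that of Gzmk, against 14.0% of all windows. Gzmb held them at 93 and at 34 bases before its start, with the AP-1 letters between them at 58 bases. The AP-1 letters were in 6.75% of all windows. These matches describe letters only, and binding was not measured.

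Between 717506 and 1801504 counts were assigned to genes per library. Levels are given as CPM, counts scaled to a common library total adjusted by edgeR's TMM factors, and 3 counts, taken as the floor of detection, equal 1.44 to 5.22 CPM. Intervals and floors cover counting error only, because amplified reads are not independent molecules. WT 1-3 had the fewest gene counts, and 43.8% of its reads aligned to more than 1 place, against 26.7% to 34.3% in the other libraries. Detected genes numbered 10331 to 10701 at first number 1 and 10782 to 11115 at first number 2, and reads outside annotated genes made up 4.92% to 7.72% and 7.79% to 9.36% of reads, so both measures separated the first numbers without overlap. Pdcd1, which carries the knock-in, ran from 163 to 516 CPM over WT libraries and from 21.2 to 128 CPM over KI libraries, without overlap. The T helper markers Cd3d, Cd3e, Cd3g, Cd4, Cd5, Cd28 and Lck summed to 4588 to 6032 CPM over all libraries, and of these Cd28 rose at first number 2, by 0.50 (SE 0.15) on the log2 scale (edgeR adjusted p 0.0237). The 6 Tfh markers, Cxcr5, Bcl6, Pdcd1, Icos, Sh2d1a and Il21, summed to 1486 to 2242 CPM and all passed the filter, although Bcl6 and Il21 had only 128 and 124 counts over all libraries, beside 9860 for Icos.

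Only a few of the 10 genes were abundant. Nkg7, Gzmk, Ccl5 and Ctsw, 4 of the 10, passed the filter on low counts, and the other 6 did not. Summed over the 10 genes, the level was 167, 65.2 and 278 CPM in WT 1-1, 1-2 and 1-3, and 642, 572 and 738 CPM in WT 2-1, 2-2 and 2-3. In KI the sum was 94.0, 123 and 87.6 CPM at first number 1 and 435, 388 and 261 CPM at first number 2. Within each genotype every library with first number 2 lay above every library with first number 1, and across genotypes KI 2-3 lay below WT 1-3. Nkg7 gave most of this sum at first number 2.

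Nkg7 encodes a membrane protein of cytotoxic granules that takes part in their release. It was at 96.4, 37.3 and 153 CPM in WT 1-1, 1-2 and 1-3, and at 391, 338 and 394 CPM in WT 2-1, 2-2 and 2-3. In KI 1-1, 1-2 and 1-3 it was at 40.1, 92.0 and 45.5 CPM, and in KI 2-1, 2-2 and 2-3 at 361, 272.0 and 182 CPM. All 6 libraries with first number 2 lay above all 6 with first number 1, in both genotypes. The WT means at first numbers 1 and 2 were 95.6 ± 57.9 and 375 ± 31.3 CPM, and the KI means 59.2 ± 28.5 and 272 ± 89.8 CPM (SD, n = 3 each). The log2 fold change of first number 2 over 1 was 1.95 (SE 0.37) in WT and 2.21 (SE 0.34) in KI.

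Gzmk encodes a trypsin-like granzyme. It was at 8.27, 0 and 15.7 CPM in WT 1-1, 1-2 and 1-3 and at 115.0, 68.1 and 257 CPM in WT 2-1, 2-2 and 2-3. The KI values were 13.2, 17.2 and 5.43 CPM at first number 1 and 16.0, 53.2 and 63.6 CPM at first number 2. The groups did not overlap in WT, while in KI the value of KI 2-1 lay inside the range at first number 1. The log2 fold change was 4.25 (SE 0.71) in WT and 1.90 (SE 0.61) in KI. Pooled over libraries, Gzmk had 872 counts at first number 2 and 78 at first number 1.

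Ccl5 encodes a chemokine released by activated T cells. Its WT values were 2.07, 26.8 and 45.2 CPM at first number 1 and 86.6, 98.1 and 40.9 CPM at first number 2. Its KI values were 5.64, 12.3 and 27.8 CPM at first number 1 and 43.0, 33.0 and 6.15 CPM at first number 2. The first numbers overlapped in both genotypes, because WT 2-3 lay below WT 1-3, and KI 2-3 below KI 1-2 and KI 1-3. The log2 fold change was 1.67 (SE 0.70) in WT and 0.85 (SE 0.74) in KI.

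Ctsw, which encodes cathepsin W, a cysteine protease typical of cytotoxic cells, did not share this pattern. It was at 53.0, 0 and 59.2 CPM in WT at first number 1 and at 28.4, 49.9 and 26.0 CPM in WT at first number 2. In KI it was at 29.5, 1.23 and 4.75 CPM at first number 1 and at 11.1, 13.4 and 9.57 CPM at first number 2. The spread within first number 1 covered all values at first number 2, and the log2 fold change was -0.13 (SE 0.82) in WT and -0.06 (SE 0.94) in KI. The name given to the set, genes that differ by first number, therefore did not hold for Ctsw. As given below, Klrc1 had no count, Gzma was seen in 1 library, and Prf1 had opposite pooled orders in the genotypes.

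**Figure D1:**
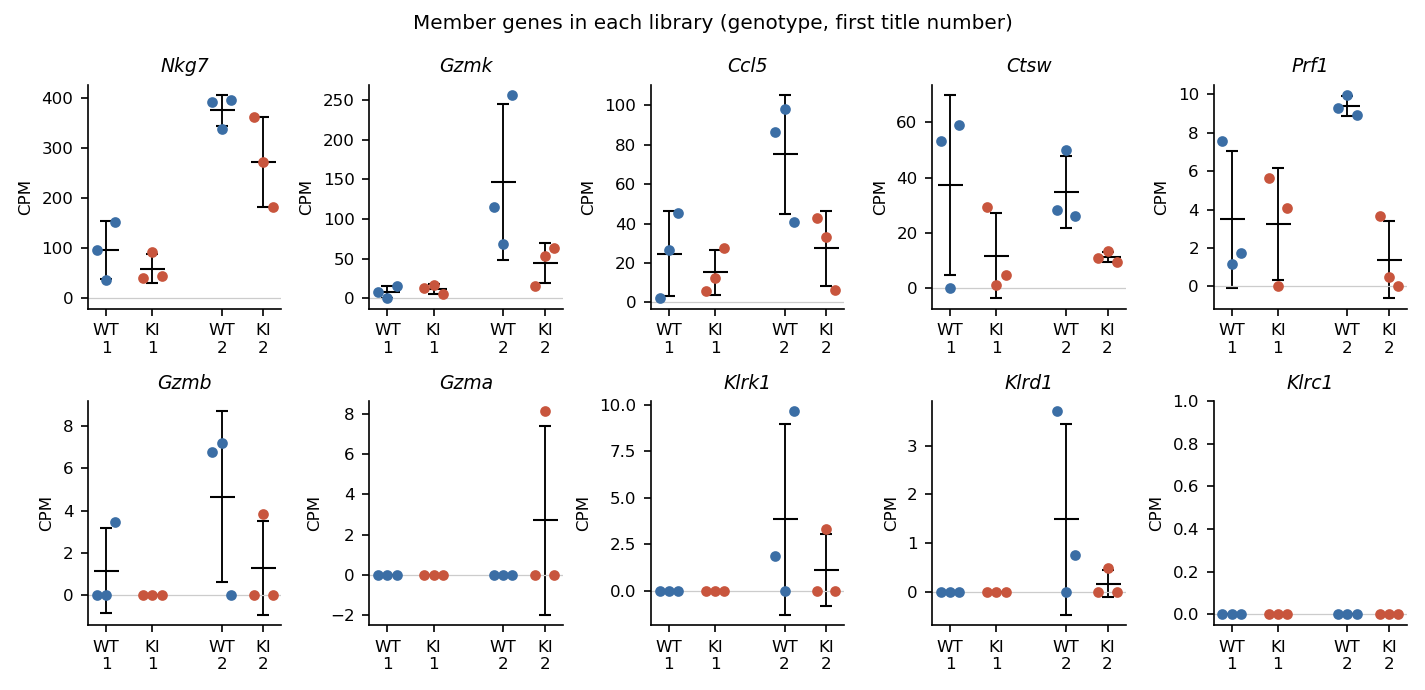
Level of the member genes in each library, in CPM on linear axes, by genotype and first title number, with 1 point per library and the mean ± SD of 3 libraries. Nkg7 was at 182 CPM or more in all 6 libraries with first number 2 and at 153 CPM or less in the other 6, whereas Ctsw overlapped between the first numbers.

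Prf1 encodes perforin. It was at 7.58, 1.16 and 1.74 CPM in WT at first number 1 and at 9.27, 9.97 and 8.91 CPM at first number 2. In KI it was at 5.64, 0 and 4.08 CPM at first number 1 and at 3.69, 0.48 and 0 CPM at first number 2. The pooled ratio of first number 2 over 1 was 2.09 in WT (counting interval 1.11 to 4.23) and 0.287 in KI (0.0694 to 0.901). The pooled order of the first numbers was thus opposite in the genotypes, on 58 counts in WT and 19 in KI. Over both the ratio was 1.45 (0.895 to 2.40). These intervals leave out the spread between libraries, and in KI the first numbers overlapped. In a fit without the filter, the contrast differed between the genotypes by -2.79 on the log2 scale (SE 2.01; edgeR adjusted p 0.830) and did not pass.

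Gzmb, which encodes the granzyme best known for triggering apoptosis, had 2 counts at first number 1, all in WT 1-3, and 32 at first number 2. It was at 3.48 CPM in WT 1-3, 6.80 CPM in WT 2-1, 7.20 CPM in WT 2-2 and 3.83 CPM in KI 2-2, and at 0 in the other libraries. The pooled ratio was 13.3, with a counting interval of 3.39 to 114. Gzma, a granzyme of the trypsin-like kind and the neighbour of Gzmk, was seen in KI 2-2 alone, at 8.14 CPM (17 counts, 95% Wilson interval 5.08 to 13.0). In that library Gzmk was at 53.2 CPM, below its value in WT 2-1, 2-2 and 2-3, where Gzma had no count.

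The receptor genes were at or near the floor. Klrk1 encodes NKG2D, and it had 3 counts in WT 2-1 (1.85 CPM), 13 in WT 2-3 (9.66 CPM) and 7 in KI 2-2 (3.35 CPM). Klrd1 encodes CD94, which pairs with NKG2 chains, and it had 6 counts in WT 2-1 (3.71 CPM) and 1 each in WT 2-3 (0.743 CPM) and KI 2-2 (0.479 CPM). The same 3 libraries, all with first number 2, held every count of both genes. Against a floor of 3 counts pooled over the 6 libraries with first number 1, pooled levels at first number 2 were 6.37-fold higher for Klrk1. The fold was 2.21 for Klrd1 and, from 1 library, 4.71 for Gzma. These folds take the counts at first number 2 (23, 8 and 17) as exact and leave out the spread between libraries. They are therefore not lower limits. Klrc1, which encodes NKG2A, had 0 counts in all 12 libraries, which allows a pooled level of up to 0.179 CPM. The counting put multiply aligned reads in an entry of their own, so a gene with near-identical paralogs, as in the Klrc and granzyme families, may be undercounted.

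Counting groups that do not overlap, 1 of the 10 members, Nkg7, was higher at first number 2 over all 12 libraries, where 2.98% of the 7542 tested genes were. Within WT 3 of 10 did so, Nkg7, Gzmk and Prf1, with 14.6% of tested genes, and within KI 1 of 10, Nkg7, with 13.0%. Of the 4 members that passed the filter, as the tested genes did, 2 did so within WT and 1 within KI. None was lower without overlap over all libraries, where 3.54% of tested genes were, or within WT (12.7%) or KI (13.5%). These counts describe a contrast that chose the members. Over the 4 members that passed the filter the median log2 fold change was 1.67, beside 0.01 over all tested genes.

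Per transcript length, in the deposited FPKM values, the order at first number 2 was led by Nkg7, with a median of 323, followed by Ccl5 at 63.6, Gzmk at 59.5 and Ctsw at 12.9 FPKM. Ccl5 and Gzmk overlapped widely and are not ordered beyond their spread. Prf1 had a median of 1.66 FPKM and Gzmb of 1.03 FPKM, Klrd1 and Klrk1 lay at 0.308 and 0.229 FPKM, and Gzma and Klrc1 had medians of 0. At first number 1 the medians were 65.7 for Nkg7, 28.5 for Ccl5, 8.09 for Ctsw and 6.40 FPKM for Gzmk. Ctsw and Gzmk overlapped there, at 0 to 34.8 and 0 to 13.6 FPKM, and are not ordered beyond their spread. Within the genotypes, their medians changed places between the first numbers in WT only. In KI the median of Gzmk lay above that of Ctsw at both first numbers. These KI medians were 13.2 and 2.14 FPKM at first number 1, and 53.0 and 6.01 FPKM at first number 2.

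**Figure D2:**
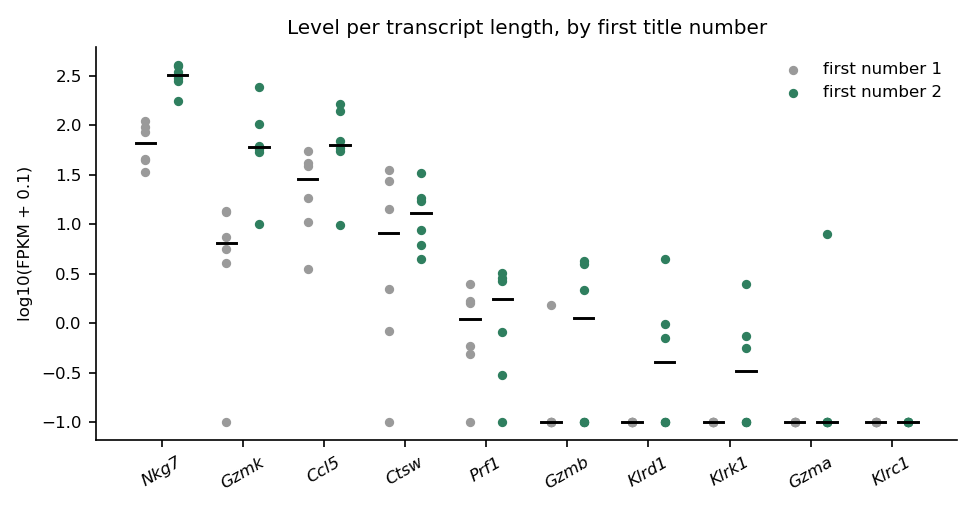
Deposited FPKM values of the members on a log10(FPKM + 0.1) axis, with 1 point per library, 6 libraries for each first number, and a line at the median. Nkg7 had the highest median at both first numbers, 65.7 and 323 FPKM, and Klrc1 was at 0 in every library.

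The comparison of KI with WT, which the study's design names, asks whether the Pdcd1 knock-in altered expression in these cells. All 4 members that passed the filter had lower estimates in KI, and none passed the test. The mean of Nkg7 was 235 ± 158 CPM over the WT libraries and 165 ± 131 CPM over the KI libraries, that of Gzmk 77.4 ± 98.3 and 28.1 ± 24.0 CPM, that of Ccl5 49.9 ± 36.3 and 21.3 ± 15.6 CPM, and that of Ctsw 36.1 ± 22.2 and 11.6 ± 9.81 CPM (SD, n = 6 each). The log2 fold changes were -0.52 (SE 0.53) for Nkg7, -1.47 (SE 0.79) for Gzmk, -1.26 (SE 0.62) for Ccl5 and -1.63 (SE 0.69) for Ctsw. The adjusted p-values of edgeR's quasi-likelihood test over all 7542 genes were 0.948, 0.919, 0.919 and 0.917. The 0 of 4 called stands beside 0.0265% of all tested genes called, which is 2 genes, and 1 of the 4, Ctsw, had an unadjusted p under 0.05 (0.0282). DESeq2 and limma-voom also called 0 of 4, with 2 and 0 at an unadjusted p under 0.05. The median over the 4 members was -1.36, beside 0.02 over all tested genes. Pdcd1, whose WT and KI values did not overlap, did not pass edgeR's test in this fit either, at -2.05 (SE 0.42; edgeR adjusted p 0.231).

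Within each first number the estimates were as follows. At first number 1 alone they were -0.70 (SE 0.47) for Nkg7, 0.60 (SE 1.02) for Gzmk, -0.67 (SE 0.90) for Ccl5 and -1.66 (SE 1.13) for Ctsw, with edgeR adjusted p from 0.688 to 0.906. At first number 2 alone they were -0.47 (SE 0.26), -1.68 (SE 0.46), -1.49 (SE 0.53) and -1.60 (SE 0.55), with edgeR adjusted p from 0.584 to 0.916. The unadjusted p there was under 0.05 for 3 of these 4 members, Gzmk (0.00191), Ctsw (0.00892) and Ccl5 (0.0123), and for 411 of 7945 genes. Prf1 also passed the filter of the fit at first number 2 alone, at -3.02 (SE 1.16; edgeR unadjusted p 0.0181, adjusted p 0.913). Gzmk therefore changed sign between the first numbers, while Ctsw had nearly the same estimate in both. The gene shares called in these fits were 0.0403% at first number 1 and 0.0126% at first number 2, and no member was among them. With the first number as a block, which called 0.053% of genes, the members' estimates ran from -1.63 to -0.57 and none passed. The edgeR unadjusted p was then under 0.05 for 2 of the 4, Ctsw (0.0210) and Nkg7 (0.0416), and for 628 of 7542 genes. The SE of Nkg7 was 0.26 with the block. Pdcd1 passed with the block, at -2.24 (SE 0.22; edgeR adjusted p 7.6e-06). The Gzmk estimate over all libraries rested in part on WT 2-3, which held its highest value, and was -0.58 without that library.

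Gzmk, Ctsw and Prf1 were lower in every KI library than in any WT library at first number 2, 3 of the 10 members and 2 of the 4 that passed the filter, where 5.82% of tested genes were lower without overlap. No member was higher without overlap (5.58% of tested genes), and at first number 1 none was higher or lower without overlap (7.94% and 7.73%). Over all 12 libraries no member separated the genotypes, with 0.239% of tested genes higher and 0.146% lower. With 3 libraries against 3, an exact permutation test cannot give a two-sided p below 0.10. Ctsw lay between 26.0 and 49.9 CPM in those WT libraries and between 9.57 and 13.4 CPM in those of KI. Prf1 had WT and KI means of 9.39 ± 0.537 and 1.39 ± 2.01 CPM there (SD, n = 3 each), on 45 counts in WT and 4 in KI.

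Whether the genotype difference itself differed between the first numbers was tested by an interaction term. Its log2 value was -2.36 (SE 0.95) for Gzmk, 0.21 (SE 0.52) for Nkg7, -0.85 (SE 1.07) for Ccl5 and 0.05 (SE 1.31) for Ctsw, with edgeR adjusted p-values of 0.592, 0.977, 0.930 and 0.998. No gene passed among 7542 (0.0%), 544 had an unadjusted p under 0.05, and DESeq2 called 7 genes, none of them a member. Without the filter on low counts Gzmk passed, at -2.41 (SE 0.68; edgeR adjusted p 0.0439), in a fit that called 0.967% of 14480 genes.

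**Figure D3:**
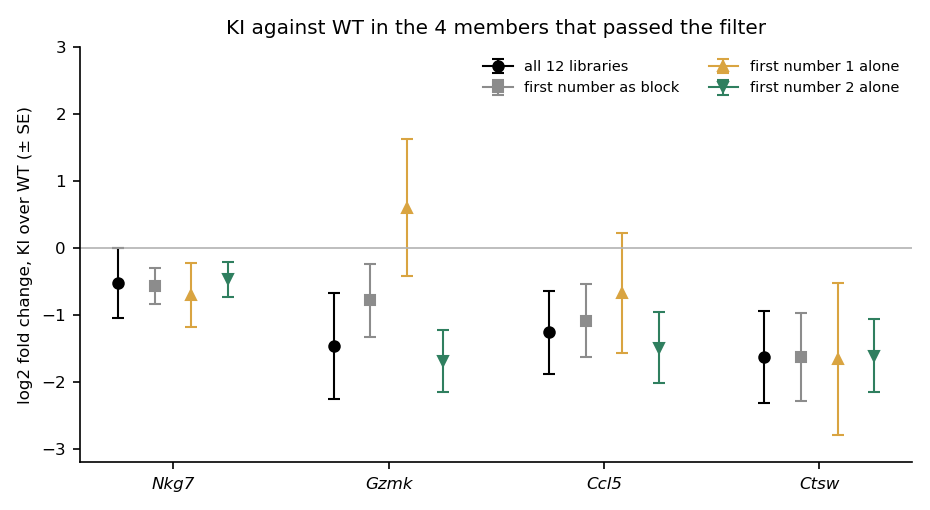
Log2 fold change of KI over WT (± SE) for the 4 members that passed the filter, from all 12 libraries, with the first number as a block, and at each first number alone. Gzmk was at 0.60 at first number 1 and -1.68 at first number 2, and the other 3 genes lay below 0 in every fit drawn.

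Among the 6 members below the filter, a fit without it gave KI over WT log2 fold changes of -1.48 (SE 1.00) for Prf1, -1.92 for Gzmb, -1.53 for Klrk1, -2.24 for Klrd1 and 4.07 for Gzma. Their edgeR adjusted p-values were 0.698, 0.708, 0.732, 0.613 and 0.512, and none passed, beside 0.0276% of genes called. Gzma rested on KI 2-2 alone, and Klrc1, without a count, could not be fitted.

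The rest of the cytotoxic programme was read from 5 further lists holding 74 genes, of which 73 were in the table under their symbol, 27 passed the filter and 24 had no count in any library. Between the first numbers 3 of the 27 rose at first number 2 and 2 fell, 18.5% beside 16.0% of all tested genes, and their median log2 fold change was 0.14 beside 0.01. The share was thus close to that of all genes. These lists were compiled with earlier results of these libraries known.

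Of the transcription factors, with 5 of 10 genes tested, Eomes and Stat4 rose. Eomes, a T-box factor of cytotoxic and memory T cells, was at 20.4 ± 18.2 CPM at first number 1 and 97.0 ± 84.3 CPM at first number 2 (SD, n = 6 each). The log2 difference was 2.11 (SE 0.56; edgeR adjusted p 0.0134). Its values were 181, 67.6 and 217 CPM in WT 2-1, 2-2 and 2-3 but 28.3, 81.9 and 6.15 CPM in KI 2-1, 2-2 and 2-3, and in KI the first numbers overlapped. Stat4, which relays interleukin 12 signals, was at 177 ± 47.5 and 288 ± 50.1 CPM (SD, n = 6 each). Tbx21, encoding T-bet, had an estimate of -0.90 (SE 0.69) on the log2 scale and did not pass (edgeR adjusted p 0.408); it is named after its values were seen.

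Among the NK receptors and adaptors, with 6 of 25 genes tested and 14 without a count, 1 rose. Klrb1c, which encodes NK1.1, was at 8.43 ± 5.45 CPM at first number 1 and 26.9 ± 9.88 CPM at first number 2 (SD, n = 6 each). Its log2 difference was 1.78 (SE 0.52; edgeR adjusted p 0.0226). The Klrb1c call was also lost without WT 1-1 or WT 1-2 and with limma-voom. Without KI 2-2 neither Eomes nor Klrb1c passed, and only 3 of the list genes tested then did, Stat4, Fasl and Unc13d.

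Of 20 other granule genes 11 were tested, and edgeR called 1 between the first numbers. Unc13d, which encodes the vesicle-priming factor Munc13-4, fell from 84.3 ± 28.7 to 35.2 ± 14.0 CPM (SD, n = 6 each). Limma-voom also called Stxbp2, which encodes a partner of syntaxins in granule release, at a log2 estimate of -0.67 (SE 0.26; edgeR adjusted p 0.0888). Serpinb9, which encodes an inhibitor of granzyme B, passed in KI alone, at 3.83 (SE 0.86; edgeR adjusted p 0.0168), and over both genotypes was at 1.48 (SE 0.73; adjusted p 0.173). Cst7 (cystatin F) and Srgn (serglycin, the granule proteoglycan) had log2 fold changes of 0.05 (SE 0.20) and 0.05 (SE 0.16). These 4 genes are named after their values were seen. Fasl, the death ligand, fell by the test, from 244 ± 454 to 24.4 ± 20.7 CPM (SD, n = 6 each), but WT 1-3 alone was at 1164 CPM, and the call was lost without it, without WT 2-2 or WT 2-3, and with DESeq2. Of 3 tested surface receptor genes 0 passed edgeR's test, DESeq2 or limma-voom, and 1 had an unadjusted p under 0.05 with each. Below the filter, and named after its values were seen, Ccr2, a chemokine receptor gene, had no count at first number 1 and was at 1.37 to 18.5 CPM at first number 2. Gzmm, also named after its values were seen, a further granzyme gene, overlapped, at 0 to 5.64 and 0 to 21.0 CPM, and it was called higher at first number 2 without the filter, on FPKM with a pseudocount of 1, and without KI 1-1 or KI 2-3.

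Between KI and WT, 0 of the 27 tested list genes passed edgeR's test and 4 had an unadjusted p under 0.05, with a median log2 fold change of -0.10 beside 0.02. Limma-voom called 0 as well, and DESeq2 called 2, Cxcr3 (a chemokine receptor gene, higher in KI) and Fasl (lower in KI), which are named after their values were seen. The log2 estimate was -1.85 (SE 0.73; edgeR adjusted p 0.914) for Eomes and -4.19 (SE 0.90; edgeR adjusted p 0.231) for Fasl.

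**Figure D4:**
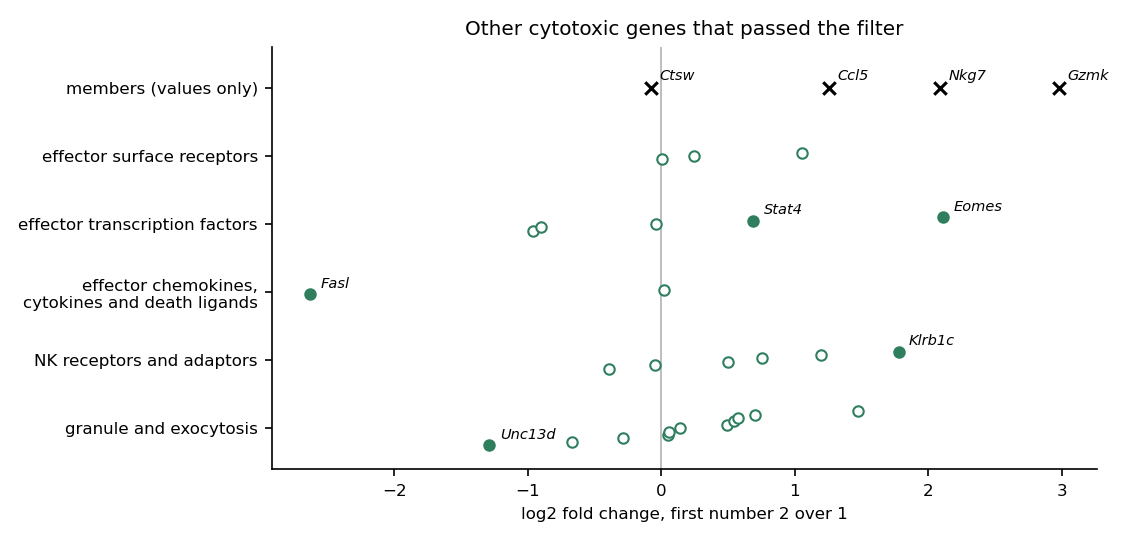
Log2 fold change of first number 2 over 1 for the 27 tested genes of the 5 other cytotoxic lists, 1 circle per gene, filled and named where the edgeR adjusted p was under 0.05, with the 4 tested members as crosses without a test. Filled circles lie on both sides of 0, with Eomes at 2.11 and Fasl at -2.63.

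Markers of other cell types were measured beside these genes, since in pooled cells fewer cells of a type and less RNA per cell cannot be told apart. The CD8 markers Cd8a and Cd8b1 together ran from 2.04 to 20.9 CPM at first number 1 and from 11.9 to 51.0 CPM at first number 2. Cd8b1 rose at first number 2, by 1.57 (SE 0.49) on the log2 scale (edgeR adjusted p 0.0332). WT 2-3, with the highest Gzmk, had the lowest CD8 sum among libraries with first number 2. KI 2-2, the only library with Gzma and one of the 3 with Klrk1 and Klrd1, had a CD8 sum of 50.8 CPM. It had the highest Cd8a of all libraries (16.3 CPM, next 6.27 CPM) and the highest Klrb1c (40.7 CPM). Its Cd8b1, at 34.5 CPM, lay below that of WT 2-1 and WT 2-2 (36.5 and 48.8 CPM). WT 2-2, with the highest CD8 sum (51.0 CPM), had no count of Gzma, Klrk1 or Klrd1. The 7 NK markers summed to 3.49 to 38.3 and 15.0 to 44.5 CPM, with Ncr1, Klre1, Klra8 and Klri2 at 0 in all 12 libraries, and Klrb1c, which rose, was the tested one.

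The 3 regulatory T cell markers, Foxp3, Ikzf2 and Il2ra, summed to 27.0 to 88.7 CPM at first number 1 and 62.2 to 155 CPM at first number 2. Ikzf2 rose, by 1.35 (SE 0.28) on the log2 scale (edgeR adjusted p 0.00253), while Foxp3 had 4 counts, all in WT 2-2. The 4 innate-like T cell markers stayed at 0.627 to 12.2 and 0 to 2.22 CPM. Of the Tfh markers, Icos and Sh2d1a rose at first number 2, with log2 fold changes of 0.76 (SE 0.21) and 0.74 (SE 0.16), and Cxcr5 and Pdcd1 fell, with -0.72 (SE 0.15) and -1.56 (SE 0.22), edgeR adjusted p from 8.4e-05 to 0.0158. The 8 B cell markers summed to 107 to 278 CPM in WT and 43.1 to 164 CPM in KI, and of 6 tested between the genotypes 0 passed edgeR's test, 4 had an unadjusted p under 0.05, and DESeq2 called 1, Ms4a1, named after its values were seen. The 4 plasma cell markers summed to 85.3 to 239 CPM at first number 1 and 63.1 to 123 CPM at first number 2, and Xbp1 fell, with a log2 estimate of -0.83 (SE 0.28; edgeR adjusted p 0.0453). The 4 myeloid markers summed to 205 CPM in WT 1-3 and to 45.8 CPM or less elsewhere. At first number 2, where Gzmk, Ctsw and Prf1 separated the genotypes, they summed to 1.24 to 8.91 CPM in WT libraries and 28.3 to 45.8 CPM in KI libraries. The part of any of these cell types in the members' levels was not tested.

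**Figure D5:**
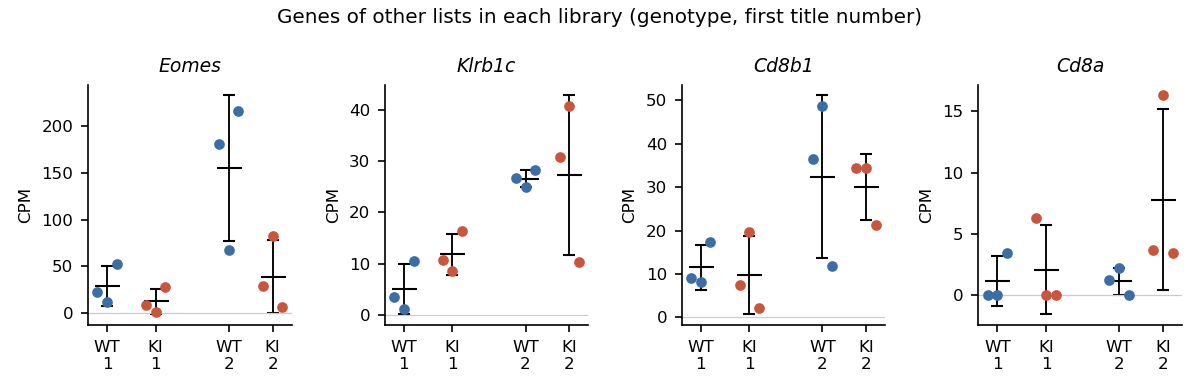
CPM of Eomes, Klrb1c, Cd8b1 and Cd8a in each library on linear axes, by genotype and first title number, with 1 point per library and the mean ± SD of 3 libraries. The 3 WT libraries with first number 2 had Eomes at 67.6 CPM or more, and Cd8b1 was lowest at first number 2 in WT 2-3.

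Once the mean of each first number was removed, the members differed in how closely they varied together. Pearson correlations of the remaining log2 CPM deviations over 12 libraries were 0.47 for Gzmk with Nkg7, 0.53 for Gzmk with Ctsw, 0.53 for Nkg7 with Ctsw and 0.31 for Nkg7 with Ccl5. Ccl5 showed -0.08 with Gzmk and -0.05 with Ctsw. The 5 other genes closest to the mean of the 4 tested members were Lgals3 (0.911), Sypl (0.872), Ctla2a (0.870), Nsd1 (0.857) and Sla (0.842), where the 95th percentile over all tested genes was 0.546. These values are descriptions without a test, since all genes share the libraries and their depth. Genotype means were not removed, and the 4 members and these 5 genes all had lower means in KI than in WT. The part of genotype in the correlations was not tested.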

How the data were processed

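RNA was sequenced from 12 libraries, 6 WT and 6 KI. The authors deposited 2 tables: raw read counts per gene (25793 genes and 5 summary entries for unassigned reads), and FPKM values (25819 entries, 27 repeated names summed here, none a member). The submitters' processing notes name CASAVA, TopHat2, Cufflinks, HTSeq, DESeq2 and mm9, without roles; annotation and use of strand are not given in the sources used here. Reads in genes made up 46.1% to 60.2% of the counted reads, those with no feature 4.92% to 9.36%, ambiguous ones 4.95% to 6.28%, and those aligned to more than 1 place 26.7% to 43.8%; these entries were left out of library sizes.

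Counts were fitted with edgeR 4.0.16 in R 4.3.3 (TMM, filterByExpr by genotype, 7542 genes, quasi-likelihood F test, Benjamini-Hochberg adjusted p under 0.05). The models held genotype alone, genotype and first number, or their interaction. The genotype and first-number contrasts were also run on simulated data, with an outcome not reported here, and the interaction was not. Pooled ratios used summed counts over summed adjusted totals, with exact 95% counting intervals. Alternatives used DESeq2 1.42.0, limma 3.58.1 (voom, and log2 of FPKM plus 1 or 0.1 for genes with a mean of at least 1 FPKM), RLE and upper-quartile scaling, no filter, blocks by title number, and each library left out.

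The members and lists were chosen with earlier results of these data known. Named genes are all members, up to 6 genes per list past the threshold between the first numbers or any list gene changed between genotypes, the 6 largest rises and falls among other genes that had the same sign in both genotypes, the 5 genes most like the members' mean, and markers by list. Where other genes appear, the text says that their values had been seen.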

Additional observations from a re-analysis of the deposited data

Results flagged for a closer look

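In sets of 6 libraries of a genotype, 6 of 17 checked had 1 library far above the others by Dixon's criterion at the 95% level, which chance meets in about 5% of sets of continuous values. In the 4 KI sets the other 5 libraries had no count, so any count is flagged there and the 5% does not apply. All 6 were in members below the filter, where most libraries had no count. In KI, the library KI 2-2 stood out for 4 genes, with Gzma at 8.14 CPM, Gzmb at 3.83 CPM, Klrk1 at 3.35 CPM and Klrd1 at 0.479 CPM, the last from 1 count. In WT, Klrd1 was at 3.71 CPM in WT 2-1 and Klrk1 at 9.66 CPM in WT 2-3. KI 2-2 was also the most deeply sequenced library, with 1801504 gene counts, and had the highest Cd8a (16.3 CPM) and Klrb1c (40.7 CPM) of all libraries. Its Cd8b1, at 34.5 CPM, was below that of WT 2-1 and WT 2-2 (36.5 and 48.8 CPM). The part of depth and of other cell types in these values was not tested.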

How the results depend on the processing

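No member was called between KI and WT under any of the 11 alternatives or in 12 fits, each without 1 library. The count of all genes changed, 2 with 407 at an unadjusted p under 0.05, was 11 with DESeq2 (5 higher, 6 lower), 1 with limma-voom, 4 without the filter, 0 on FPKM with a pseudocount of 1 or 0.1 (488 and 490 unadjusted), 1 at first number 2 alone, and 0 to 2 with a library left out. A replicate block by first number gave 4 genes and one by both numbers 3. The block moved the members' adjusted p to between 0.498 and 0.734 and changed no call on a member. Matching on both title numbers did not pair single libraries. Those with both numbers alike correlated at 0.083 to 0.258, not over 0.1 in each of 6 pairs. Of the 12 libraries, 4 correlated best with the library of both numbers alike. The first number did group the libraries, with a mean correlation of 0.166 where it was alike and -0.165 where it was not. With both numbers alike the mean was 0.164, and -0.0049 once first-number means were removed, so the second number did not raise it. Gzmk turned to 0.60 at first number 1 alone and 0.46 on FPKM with a pseudocount of 0.1, and ranged from -1.89 to -0.58 with a library left out.

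Genes differing by first number, 1208, became 782 on FPKM with a pseudocount of 0.1, 381 in WT alone and 359 in KI alone, and 751 to 1252 with a library left out, fewest without KI 2-2. Calls in the 5 cytotoxic lists, 5, became 8 without the filter, 1 in KI alone, and 3 (without KI 2-2) to 8 (without KI 1-1). The interaction count, 0, became 7 with DESeq2, 140 without the filter, where 1 member (Gzmk, -2.41) passed, and 0 to 24 with a library left out, most without WT 1-1. The Ctsw interaction turned to -0.028 without the filter and ranged from -0.51 to 2.02, and that of Nkg7 from -0.27 to 0.66, with a library left out. Fewer libraries entered the fits on 1 genotype or first number; otherwise the cause was not tested. Depth limits the 6 members below the filter, where the floor per library is 1.44 to 5.22 CPM.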

Other observations

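Outside the cytotoxic lists, Ctla2a had the largest rise between the first numbers among genes with the same sign in both genotypes. Ctla2a, which encodes a cysteine protease inhibitor of activated T cells, rose from 14.9 ± 14.4 CPM at first number 1 to 231 ± 137 CPM at first number 2 (SD, n = 6 each), by 3.92 on the log2 scale (edgeR adjusted p 3.8e-05). It was also among the 5 genes that varied most like the members once first-number means were removed. The predicted gene Gm4076 rose from 62.7 ± 25.7 to 587 ± 78.3 CPM (SD, n = 6 each), without overlap. The other largest rises were Haus2, Arl4d, Sacm1l and Mtrnr2l, with log2 fold changes from 3.13 to 3.76. Of these, Haus2, Arl4d and Mtrnr2l had means of 1.14, 2.03 and 1.45 CPM at first number 1. Those means lay at or near the floor of detection, so the size of these rises rests on few counts.

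Among the largest falls was Socs3, an inhibitor of cytokine receptor signalling, from 57.0 ± 18.5 to 10.4 ± 3.48 CPM. Dhrs3, a retinal reductase gene, fell from 64.5 ± 27.0 to 9.99 ± 3.70 CPM (SD, n = 6 each). Both falls were without overlap between the first numbers. Ppp2r5b, Prpf31 and Agpat1 fell too, with log2 fold changes of -2.42, -2.39 and -2.30. Ppp2r5b and Agpat1 had means of 3.11 and 3.00 CPM at first number 2, near the floor of detection. What set the first numbers apart is not given in the sources used here.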
